A study of Mus musculus with 6 samples.

Results

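Small leucine-rich proteoglycans are described here in mouse pericytes kept with or without platelet-derived growth factor BB (PDGF-BB). The 10 genes are Ogn, Aspn, Omd, Ecm2, Fmod, Lum, Dcn, Bgn, Prelp and Kera, taken as the probe sets whose only annotated symbol is one of these names, and all 10 were found among the 20239 genes with 1 symbol and 1 probe set each. They were selected on the log2 differences between PDGF-BB and control in these same arrays, together with their membership of the family, so those differences are given as a description, with errors and without a test. Ecm2, Aspn, Omd and Ogn lie side by side on chromosome 13, and the other 6 genes are their relatives elsewhere in the genome.

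RNA came from pericytes, the contractile cells that sit on capillaries, of the C57BL/6 strain background, and was hybridised as biotin-labelled total RNA to 1-colour arrays. The 3 PDGF-BB arrays hold cells treated at 100 ng/ml for 5 days, and the 3 control arrays hold cells kept for the same time without it. No other allele, transgene or agent is named for either group, and the content of the control medium is not stated. Arrays are numbered 1 to 3 in each group, and nothing says whether a number marks a separate isolation or culture, so the errors and p-values below speak only of the scatter among these 6 arrays, and that scatter could be technical.

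Small leucine-rich proteoglycans are secreted matrix proteins built around a curved stack of leucine-rich repeats, and most carry chondroitin, dermatan or keratan sulfate chains. They coat collagen fibrils and set fibril width and spacing, and several bind transforming growth factor-β (TGF-β), bone morphogenetic proteins or cell surface receptors. Class I holds decorin, biglycan and asporin, class II holds fibromodulin, lumican, keratocan, osteomodulin and PRELP, and class III holds osteoglycin. They are abundant in tendon, bone, cartilage, cornea and vessel walls, where fibroblasts and mural cells make them.

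All values are RMA expression values on the log2 scale, and a difference of 1 is a 2-fold change. They ran from 4.08 to 14.2, and the median gene lay between 8.43 and 8.46 on every array, with a median log2 difference of -0.02 between the groups. A background level of 7.79 was taken from the 90th percentile of 18 measured lymphocyte, mast cell and erythroid markers, genes that these cells should lack. Arrays correlated across genes at 0.994 to 0.996 within a group and at 0.973 to 0.986 between groups. Of 15 pericyte markers, 8 averaged above the background level: Pdgfrb (mean log2 value 12.98 in control and 12.85 in PDGF-BB) and Acta2 (13.76 and 12.69) were far above it, Cspg4 was at 8.57 and 9.48, and Rgs5 (7.77 and 7.71) and Des (7.24 and 7.32) lay under it. Fibroblast markers were also present, 9 of 11 above the background level, so the arrays do not separate pericytes from fibroblast-like cells. Above that level were also 4 of 6 adipocyte markers and 3 of 11 markers of bone, cartilage and tendon cells. For Schwann cells and astrocytes it was 2 of 5, for epithelium 2 of 8, for endothelium 2 of 11 and for macrophages 1 of 12. The average log2 value of the fibroblast list spanned 10.59 to 10.85 on the control arrays and 10.66 to 10.79 on the PDGF-BB arrays, and that of the pericyte list 9.07 to 9.15 and 9.03 to 9.09. Within these steady averages single markers moved: of the fibroblast list, Col15a1 (log2 difference 2.02, adjusted p 0.012) and Dpt (0.72, adjusted p 0.019) rose, and Mfap5 (-2.52, adjusted p 0.012; -1.89 without PDGF-BB array 2) and Dpep1 (-0.88, adjusted p 0.011) fell. Of the pericyte list, Anpep rose (0.87, adjusted p 0.0028) and Acta2 (-1.07, adjusted p 0.024) and Cd248 (-0.33, adjusted p 0.040) fell. Leaving out control array 3, PDGF-BB array 2 or PDGF-BB array 3 left Dpt short of the threshold (adjusted p from 0.061 to 0.066). Acta2 was not called without PDGF-BB array 1 or any 1 control array (0.058 to 0.067), and Cd248 without any 1 array other than control array 1 (0.081 to 0.13). The part of these cell markers in the results below was not tested. In such bulk RNA, fewer cells of a type and less RNA per cell cannot be told apart.

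The 4 genes of the chromosome 13 cluster were all lower with PDGF-BB, while their relatives went apart: Fmod and Prelp were lower, Lum was higher, and the class I genes Dcn and Bgn had log2 differences of 0.08 and -0.12. By the threshold used for all genes, a Benjamini-Hochberg adjusted p under 0.05 in limma, 6 of the 10 were called lower and 1 higher, against 11.4% and 10.1% of all genes tested (21.5% in either direction). In 8 of the 10 the arrays of the groups did not overlap, against 37.6% of all genes; the exceptions were Dcn and Kera. Because this same contrast selected the genes, nothing is read from these counts. The median log2 difference was -1.26 over the 10 genes, -2.29 over the cluster and -0.02 over the relatives.

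**Figure D1:**
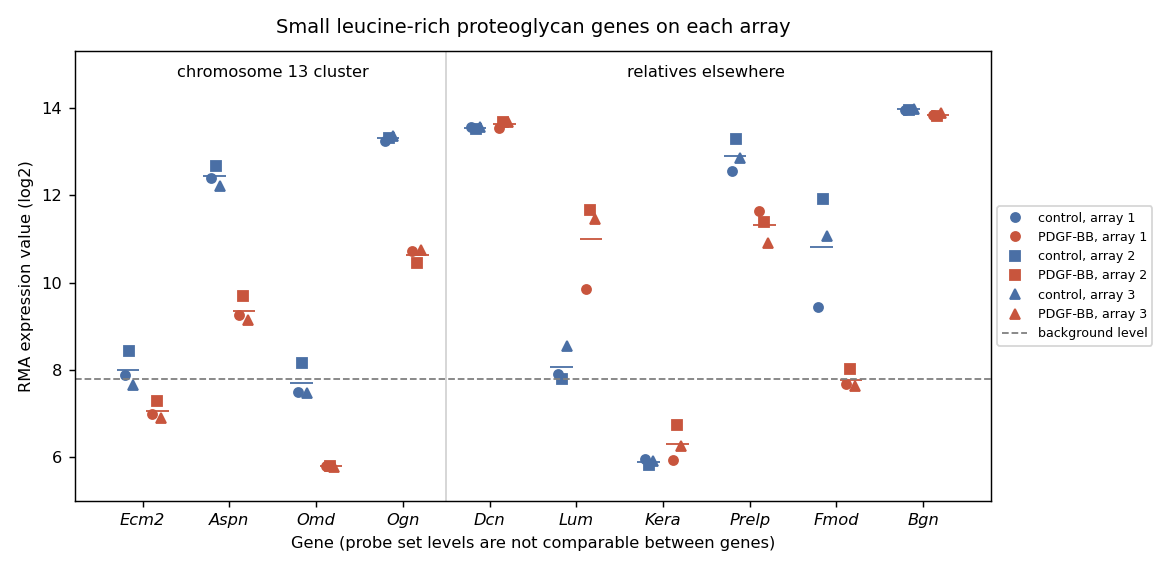
RMA expression values (log2) of the 10 proteoglycan genes on the 3 control arrays (blue) and 3 PDGF-BB arrays (red), with symbols for the array number, a short line at each group mean and a dashed line at the background level of 7.79. The cluster genes are all lower with PDGF-BB; Omd sits near 5.8 on all 3 PDGF-BB arrays, Lum moves up, and Dcn and Bgn stay near the top of the scale in both groups.

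Osteoglycin (Ogn, Entrez gene 18295), a class III protein also called mimecan that carries keratan sulfate in the cornea, was at 13.25, 13.31 and 13.37 on control arrays 1 to 3 and at 10.72, 10.45 and 10.74 on PDGF-BB arrays 1 to 3. The groups did not overlap, and the gap between them was many times the spread within either. The mean went from 13.31 ± 0.06 to 10.64 ± 0.16 (SD, n = 3 each), a log2 difference of -2.67 (SE 0.09, 95% interval -2.88 to -2.46), or 6.36-fold lower. Ogn stayed well above the background level on the PDGF-BB arrays.

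Asporin (Aspn, Entrez gene 66695), a class I protein with a run of aspartates that binds TGF-β and collagen, was at 12.40, 12.68 and 12.21 in control and at 9.25, 9.68 and 9.14 with PDGF-BB. Array 2 was the highest of each group, and the highest PDGF-BB array was still far under the lowest control array. The log2 difference was -3.07 (SE 0.17, 95% interval -3.47 to -2.67), or 8.42-fold lower, from 12.43 ± 0.23 to 9.36 ± 0.29 (SD, n = 3 each). Between arrays of the same number it was -3.14, -3.00 and -3.08. These lay close together, but what a shared number marks is not stated, so they do not show how far the difference varies. The log2 difference of Aspn was -3.24 without PDGF-BB array 2 and -2.95 without control array 2.

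Osteomodulin (Omd, Entrez gene 27047), a keratan sulfate proteoglycan of bone, was at 7.49, 8.15 and 7.46 in control and at 5.80, 5.79 and 5.78 with PDGF-BB. Only control array 2 exceeded the background level, so no fold is given. Its log2 difference was -1.91 (SE 0.18, 95% interval -2.32 to -1.49), with means of 7.70 ± 0.39 and 5.79 ± 0.0087 (SD, n = 3 each). The 3 PDGF-BB values lay close together and below the median of the genes taken as absent, which was 6.58.

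Extracellular matrix protein 2 (Ecm2, Entrez gene 407800), a matrix protein with leucine-rich repeats like those of decorin, was at 7.88, 8.44 and 7.66 in control and at 6.98, 7.28 and 6.90 with PDGF-BB. Array 2 was again the highest of each group, and all 3 PDGF-BB arrays lay under the background level. The log2 difference was -0.94 (SE 0.20, 95% interval -1.42 to -0.46), at least 1.92-fold lower, with means of 7.99 ± 0.40 and 7.05 ± 0.20 (SD, n = 3 each). Ecm2 no longer passed the threshold without PDGF-BB array 1 (log2 difference -0.90) or without PDGF-BB array 3 (-0.86).

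The letters before the starts of the cluster genes are shown because these 4 neighbours were lower together, and those of Fmod because it had the largest difference among the relatives. Each is the 250 bases upstream of the gene's RefSeq start on the strand of transcription, in build GRCm38.p6: Ecm2 at chr13:49504560-49504809, Aspn at chr13:49544193-49544442, Omd at chr13:49582212-49582461, Ogn at chr13:49607765-49608014 and Fmod at chr1:134037004-134037253, all on the plus strand. Capitals mark matches to any of the 8 motifs searched.
Ecm2: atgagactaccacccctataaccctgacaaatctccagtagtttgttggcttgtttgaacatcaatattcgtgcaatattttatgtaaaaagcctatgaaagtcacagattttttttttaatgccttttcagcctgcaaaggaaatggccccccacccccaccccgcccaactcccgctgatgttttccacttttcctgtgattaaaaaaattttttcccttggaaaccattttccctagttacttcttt
Aspn: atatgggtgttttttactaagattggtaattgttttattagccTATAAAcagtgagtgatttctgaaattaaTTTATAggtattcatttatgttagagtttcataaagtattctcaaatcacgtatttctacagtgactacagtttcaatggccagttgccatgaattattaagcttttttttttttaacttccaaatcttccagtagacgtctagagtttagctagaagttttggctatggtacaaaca
Omd: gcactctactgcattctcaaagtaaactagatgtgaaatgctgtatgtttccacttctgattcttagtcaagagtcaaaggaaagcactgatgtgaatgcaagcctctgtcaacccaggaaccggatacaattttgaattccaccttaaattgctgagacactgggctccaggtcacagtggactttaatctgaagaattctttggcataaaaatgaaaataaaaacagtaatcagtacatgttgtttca
Ogn: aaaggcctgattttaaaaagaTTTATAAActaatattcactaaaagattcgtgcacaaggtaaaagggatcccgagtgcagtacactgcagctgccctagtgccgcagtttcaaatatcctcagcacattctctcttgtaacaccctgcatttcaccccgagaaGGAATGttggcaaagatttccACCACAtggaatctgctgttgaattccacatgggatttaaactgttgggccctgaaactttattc
Fmod: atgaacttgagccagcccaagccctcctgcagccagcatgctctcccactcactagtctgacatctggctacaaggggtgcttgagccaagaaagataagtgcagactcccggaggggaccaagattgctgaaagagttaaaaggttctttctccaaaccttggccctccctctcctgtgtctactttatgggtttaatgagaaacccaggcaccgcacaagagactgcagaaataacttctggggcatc

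Against 32851 RefSeq promoters of the same length, whose median GC content was 52.4%, the upstream stretches of the cluster were poor in G and C. GC was 30.0% in Aspn, with 1.47% of promoters lower, 38.4% in Omd, with 9.05% lower, 40.0% in Ecm2, with 11.8% lower, and 42.0% in Ogn, with 15.9% lower. The 4 stretches held 1 to 4 CpG dinucleotides, against a median of 6 over all promoters. Among the relatives Kera held 1, Fmod 2, Prelp 5 and Bgn 7, so a low CpG count was not particular to the cluster. In GC content Fmod was at 51.2% and Prelp at 55.6%, close to the median of 52.4%. Bgn was at 64.4% and Kera at 42.4%, near Ogn. Promoters of 8 of the 10 genes were in the RefSeq table; Lum and Dcn were not.

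Motifs were searched on both strands. TATAAA, the letters of a TATA box, was found in Aspn, in Ogn and in 12.4% of all promoters. In Aspn it lay at 207 to 202 and, on the other strand, 178 to 173 bases before the start. In Ogn it lay at 227 to 222 and, on the other strand and overlapping it, 229 to 224 bases before the start. None of these matches came nearer to the start than 173 bases. GGAATG, bound by TEAD factors, was found in Ogn at 86 to 81 bases before the start and in 12.6% of all promoters. TGTGGT, the RUNX core, was found in Ogn on the other strand at 65 to 60 bases before the start, printed as ACCACA, and in 14.05% of all promoters. TGANTCA (AP-1, 6.75% of all promoters), CAGACA (SMAD, 17.1%), TGTTTAC (FoxO, 3.17%), CCGGAA (ETS, 12.0%) and the CArG box of serum response factor (1.47%) matched none of the 8. No motif was shared by all 4 cluster genes, and these matches describe letters in this window only.

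Among the class II relatives, fibromodulin (Fmod, Entrez gene 14264), which binds collagen I and TGF-β and shapes tendon fibrils, was at 9.44, 11.91 and 11.06 in control and at 7.67, 8.02 and 7.64 with PDGF-BB. Every control array was above every PDGF-BB array, but the control arrays were themselves far apart, array 1 being the lowest. The control SD of 1.25 stood at the 99.956th percentile of all genes. The log2 difference of -3.03 (SE 0.56, 95% interval -4.35 to -1.72), at least 8.17-fold lower, therefore has a wider interval than the like-sized difference of Aspn. Between same-numbered arrays it was -1.78, -3.90 and -3.42, and it was -3.71 without control array 1 and -2.48 without control array 2.

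PRELP (Prelp, Entrez gene 116847), which anchors basement membranes to collagen through heparan sulfate, was at 12.55, 13.29 and 12.84 in control and at 11.64, 11.39 and 10.91 with PDGF-BB. The groups did not overlap, and control array 2 was again the highest. Prelp went from 12.89 ± 0.37 to 11.32 ± 0.37 (SD, n = 3 each), a log2 difference of -1.58 (SE 0.23, 95% interval -2.13 to -1.02), or 2.98-fold lower. It remained far above the background level, and the differences by array number were -0.90, -1.90 and -1.93.

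Lumican (Lum, Entrez gene 17022), a keratan sulfate proteoglycan of cornea and skin that shares collagen sites with fibromodulin, went the other way, from 7.91, 7.78 and 8.54 in control to 9.84, 11.67 and 11.45 with PDGF-BB. Control values lay around the background level, PDGF-BB values were all above it, and PDGF-BB array 1 was the lowest of its group. The log2 difference was 2.91 (SE 0.47, 95% interval 1.80 to 4.03), or 7.53-fold higher, with means of 8.08 ± 0.40 and 10.99 ± 0.999 (SD, n = 3 each). Between same-numbered arrays it was 1.94, 3.89 and 2.92, and it was 3.49 without PDGF-BB array 1. The arrays numbered 1 thus gave the smallest difference for Fmod, Prelp and Lum alike, in whichever direction the gene moved.

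Decorin (Dcn, Entrez gene 13179), the best known class I member, a collagen and TGF-β binder that also engages growth factor receptors, was at 13.55, 13.51 and 13.57 in control and at 13.53, 13.67 and 13.68 with PDGF-BB. The groups overlapped, and both lay close to the top of the scale, where the brightest probe set of an array read 14.1 to 14.2. The log2 difference was 0.08 (SE 0.06, 95% interval -0.07 to 0.23) and Dcn was not called. Biglycan (Bgn, Entrez gene 12111), its close relative on the X chromosome, was at 13.96, 13.96 and 13.98 in control and at 13.85, 13.81 and 13.88 with PDGF-BB. All 3 PDGF-BB arrays were lower, but by a log2 difference of -0.12 (SE 0.05, 95% interval -0.24 to 0.0034), and Bgn was not called.

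Keratocan (Kera, Entrez gene 16545), the corneal keratan sulfate proteoglycan, was at 5.96, 5.82 and 5.91 in control and at 5.93, 6.74 and 6.25 with PDGF-BB. All 6 values lay under the background level, so no fold is given. The log2 difference was 0.41 (SE 0.19, 95% interval -0.03 to 0.85), and it passed the threshold only without PDGF-BB array 1 (0.60), a difference between values within the range of genes taken as absent.

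**Figure D2:**
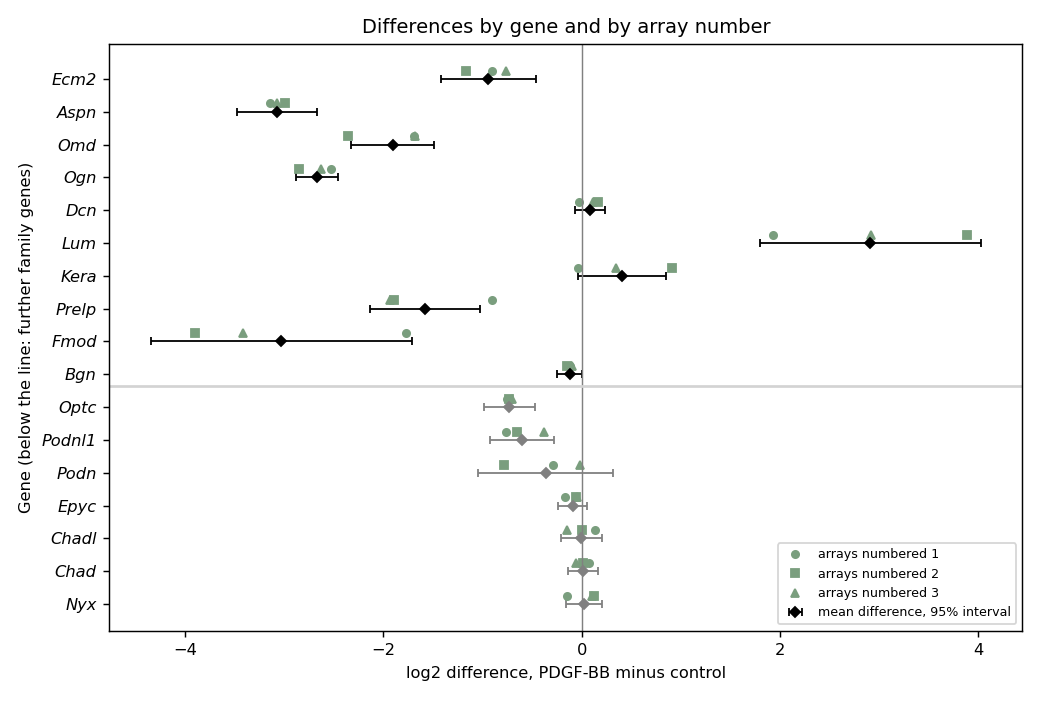
Log2 differences, PDGF-BB minus control, for the 10 genes and, below the line, 7 further family genes: black and grey diamonds with bars give the mean difference and its 95% interval from limma, and green symbols the difference between arrays of the same number. The bars of Fmod and Lum are the widest, those of Ogn, Dcn and Bgn narrow, and the green symbols of Aspn lie together near -3.

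The cluster and its relatives were also set against each other on every array. The mean of the 4 cluster genes minus the mean of the 6 relatives was -0.31, -0.40 and -0.81 on control arrays 1 to 3 and -2.22, -2.58 and -2.50 on PDGF-BB arrays 1 to 3. The level of this score is set by the probe sets and means nothing in itself. It was lower on each PDGF-BB array than on any control array. Because this same contrast selected the genes, nothing is read from that separation. PDGF-BB minus control was -1.93, made of -2.15 for the cluster and -0.22 for the relatives, whose small mean hides the opposite differences of Fmod and Lum. Among the relatives, Dcn and Bgn also lay close to the top of the scale and Kera under the background level, where a change may be understated. In the cluster, the means of Omd were under the background level too. Without Fmod among the relatives the value was -2.49, and without Lum it was -1.30.

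Which array was the highest of its group differed between the genes. Control array 2 was the highest of its group for 5 of the 10 genes (Aspn, Omd, Ecm2, Fmod and Prelp), where 34.9% of all genes had it highest, and PDGF-BB array 2 for 5 (Aspn, Ecm2, Fmod, Lum and Kera), where 33.3% had. Ogn, Dcn and Bgn were highest on array 3 in both groups. So 3 of the 4 cluster genes, with Fmod and Prelp, shared their highest control array, and Ogn did not. With only 10 genes, counts of 5 are not far from the shares over all genes, and nothing is read from them.

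The genes around the cluster were mixed in direction. The order in RefSeq is Susd3, Fgd3, Bicd2, Ippk, Cenpp, then Ecm2, Aspn, Omd and Ogn, then Nol8, Iars, Fbxw17, Nutm2 and Spin1. Of these 10 measured neighbours, 2 were lower and 1 higher by the threshold, against 11.4% and 10.1% of all genes tested. Their median log2 difference was -0.05, with a range of -0.55 to 0.59. That range excludes the values of Aspn, Ogn and Omd and of Ecm2 (-0.94), but the 95% interval of Ecm2 reaches -0.46, inside the range. The same contrast selected the 4 cluster genes and not their neighbours, so nothing is read from this gap. Fgd3 fell by 0.55 (SE 0.11, adjusted p 0.013) and Spin1, a histone reader, by 0.35 (SE 0.05, adjusted p 0.0055), while Iars, the isoleucine transfer RNA synthetase, rose by 0.59 (SE 0.07, adjusted p 0.0027). Nol8, next to Ogn, had a log2 difference of 0.21 (adjusted p 0.087), Ippk of 0.24 (0.065), Bicd2 of -0.18 (0.14), Susd3 of -0.17 (0.21), Fbxw17 of -0.04 (0.87) and Nutm2 of -0.05 (0.61). Cenpp, a centromere protein gene, spans all 4 cluster genes on the opposite strand and had a log2 difference of 0.33 (adjusted p 0.20), with means of 7.17 and 7.50. The means of Cenpp, Susd3 and Nutm2 were under the background level in both groups, as were those of Omd in the cluster. The sizes of differences at such levels are uncertain, for the neighbours and for Omd alike.

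Of the relatives, 5 lie in other family clusters, where the values were mixed on chromosome 10 and all lower on chromosome 1. On chromosome 10 the order is Dcn, Lum, Kera and Epyc, with log2 differences of 0.08, 2.91, 0.41 and -0.09, and 3 of 9 other measured neighbours were called higher in limma and none lower, nor was any lower at an unadjusted p under 0.05. On chromosome 1 the order is Optc, Prelp and Fmod, with -0.73, -1.58 and -3.03, and 1 of 9 other neighbours was called, the adjacent Btg2 at -0.64 (adjusted p 0.0045). Beyond Optc, Atp2b4 read 10.55, 8.54 and 8.32 on control arrays 1 to 3 and averaged 7.51, under the background level, with PDGF-BB. Control array 1 stood apart: the log2 difference of Atp2b4 was -1.63 with it (adjusted p 0.078; with a block for array number, 0.027) and -0.92 without it (adjusted p 0.0035). Around Bgn on X, 1 of 10 neighbours was called higher and 1 lower.

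**Figure D3:**
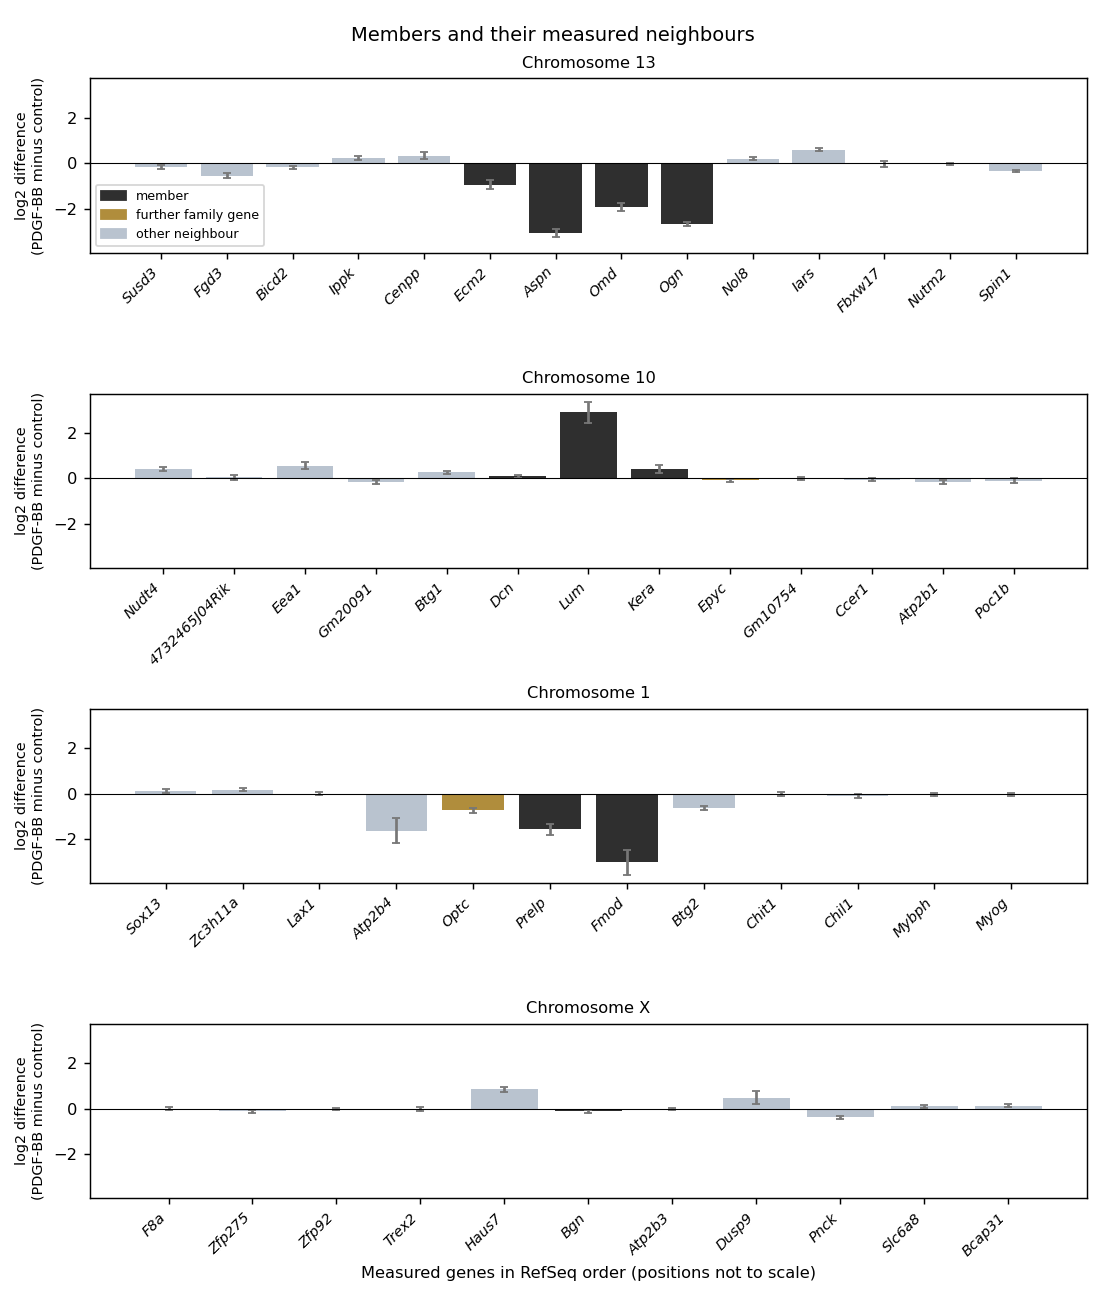
Log2 differences (PDGF-BB minus control, bars, with standard errors) of the genes in RefSeq order around the proteoglycan clusters on chromosomes 13, 10, 1 and X, with the 10 genes in black, a further family gene in ochre and other measured neighbours in grey-blue. The 4 bars of the chromosome 13 cluster point down, as do shorter ones of Fgd3 and Spin1, while those of the adjacent Cenpp and Nol8 point up. Lum stands far above its neighbours Dcn and Kera, and Optc, Prelp and Fmod all point down.

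Of 8 further members of the family, 7 were measured, and 2 of these fell in limma while none rose, nor did any at an unadjusted p under 0.05. The share called was 28.6%, against 21.5% of all genes tested, and the median log2 difference was -0.09. Opticin (Optc), the class III neighbour of Prelp, fell by 0.73 (SE 0.11, adjusted p 0.0047), from 8.52 ± 0.16 to 7.79 ± 0.15 (SD, n = 3 each), which is at the background level. Podocan-like 1 (Podnl1) fell by 0.60 (SE 0.14, adjusted p 0.022), and did not pass the threshold when PDGF-BB array 2 (adjusted p 0.067) or 3 (0.056) was left out. Podocan (Podn) was well expressed, at 11.86 and 11.50, with a log2 difference of -0.36 (adjusted p 0.46). Epyc, Nyx and Chad were under the background level in both groups, and they and Chadl had log2 differences between -0.09 and 0.03.

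Enzymes that build the glycosaminoglycan chains were called at shares near that of all genes tested, which was 21.5% in either direction. Of 22 genes for the linkage region and for chondroitin and dermatan sulfate, 5 rose and 1 fell (27.3% called). Their median log2 difference was 0.10. Xylt1, a xylosyltransferase that starts such chains, rose by 1.66 (SE 0.16, adjusted p 0.0014), while Xylt2, which does the same step, had a log2 difference of -0.13 (adjusted p 0.30), and Chst15, which adds a further sulfate to chondroitin, rose by 1.30 (SE 0.07, adjusted p 3.7e-04). The gene that fell, Chst7, was under the background level in both groups (-0.35, adjusted p 0.025) and lost its call without control array 1 (adjusted p 0.059), control array 2 (0.079), PDGF-BB array 1 (0.082) or PDGF-BB array 3 (0.069). Another 11 genes serve keratan sulfate, the chain of some class II members and of osteoglycin, and tyrosine sulfation. None of them rose in limma (1 at an unadjusted p under 0.05) and 2 fell (18.2% called), with a median of -0.10. These were the galactosyltransferase B4galt4 (-0.77, adjusted p 0.0018), which was under the background level in both groups, and the sulfotransferase Chst1 (-0.36, adjusted p 0.047). Chst1 missed the threshold with a block for array number (adjusted p of 0.061), repeated quantile normalization (0.054), median centring (0.062) or a trended robust prior (0.052). It was also not called without control array 2 or 3 (0.13 each) or PDGF-BB array 1 (0.099), 2 (0.070) or 3 (0.13).

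Collagens that these proteins coat were called at a share of 28.6%, against 21.5% of all genes tested. Of 14 genes, 3 rose and 1 fell, with a median of 0.09, and Col1a1 and Col1a2 had log2 differences of 0.17 (adjusted p 0.44) and 0.03 (0.83). Col6a3, a chain of the beaded-filament collagen to which decorin and biglycan bind, rose by 2.08 (SE 0.17, adjusted p 9.5e-04), and Col6a2 by 0.86 (adjusted p 0.025). Col11a1, a chain of a minor fibrillar collagen, fell by 0.59 (SE 0.07, adjusted p 0.0027). Only 1 collagen gene was called higher without control array 1, control array 3, PDGF-BB array 2 or PDGF-BB array 3, and Col6a2 was then not called (adjusted p 0.062 to 0.079).

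Proteases that cut the family or its propeptides went both ways, with 2 of 15 genes higher and 4 lower. This was 40% of the list, against 21.5% of all genes tested. Tll1, a relative of the procollagen C-proteinase, fell by 1.73 (SE 0.22, adjusted p 0.0027), while its paralogue Tll2 rose by 1.26 (SE 0.22, adjusted p 0.0083). The mean of Tll1 with PDGF-BB (6.99) and that of Tll2 in control (7.54) lay under the background level, so these are at least 3.32-fold lower and at least 2.40-fold higher. Ctsk, the collagen-cutting cathepsin K, rose by 0.93 (SE 0.15, adjusted p 0.0063), and the aggrecanase Adamts5 fell by 0.90 (SE 0.19, adjusted p 0.015). The call of Adamts5 was lost without control array 2 (adjusted p 0.051), control array 3 (0.051) or PDGF-BB array 1 (0.059), and the count of lower proteases was then 2, 1 and 2.

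Receptors that bind free decorin, biglycan or lumican were also divided, with 3 of 13 higher and 3 lower. This was 46% of the list, against 21.5% of all genes tested. Cd44 rose by 0.45 (SE 0.07, adjusted p 0.0042) and Cd14, a co-receptor of Toll-like receptors, by 0.80 (SE 0.13, adjusted p 0.0071). Egfr, which decorin binds and damps, fell by 0.59 (SE 0.10, adjusted p 0.0062) and Igf1r by 0.55 (SE 0.10, adjusted p 0.011). Of 12 genes of the TGF-β and bone morphogenetic protein systems, whose ligands asporin, decorin, biglycan and fibromodulin hold, 3 rose and 5 fell. The share called was 66.7%, and the median log2 difference was -0.08. Tgfb2 fell by 1.43 (SE 0.17, adjusted p 0.0023) and Tgfb3 by 0.84 (SE 0.10, adjusted p 0.0027), whereas Tgfb1 rose by 0.57 (SE 0.09, adjusted p 0.0069) and the receptor Tgfbr1 by 0.40 (adjusted p 0.025). Without control array 1, control array 2 or PDGF-BB array 1, only 1 gene of this list was called higher, and Tgfbr1 was not (adjusted p 0.059, 0.075 and 0.084); nor was Tgfbr1 called without PDGF-BB array 3 (0.078).

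Genes of other proteoglycans and matrix proteins were called in both directions. The shares were 12.5% of the hyalectans and link proteins and 25% of the rest, against 21.5% of all genes tested. Among hyalectans and link proteins 1 of 8 rose, versican (Vcan), by 0.45 (SE 0.08, adjusted p 0.0070), and none fell in limma, nor did any at an unadjusted p under 0.05; with the array number as a block, or without control array 1, 2 rose. Among 24 genes of basement membrane, cell surface and remaining proteoglycans, listed with matrix proteins such as Smoc2, 4 rose and 2 fell. Col18a1 and Agrn, heparan sulfate proteoglycans of basement membranes, each rose by 1.31 (SE 0.11 and 0.14, adjusted p 9.0e-04 and 0.0018), and Smoc2, a calcium-binding matrix protein, fell by 1.95 (SE 0.30, adjusted p 0.0053). Syndecan 2 (Sdc2) fell by 0.37 at an adjusted p of 0.0498, and was not called without any 1 of the control arrays (0.097 to 0.13) or without PDGF-BB array 1 (0.15) or 2 (0.15); 4 genes of this list were lower with the array number as a block, and 1 without PDGF-BB array 1 or 2, with median-centred arrays or with all probe sets.

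Factors of tendon and skeleton, tissues rich in fibromodulin, osteomodulin and asporin, showed 2 of 12 genes higher and 1 lower (25% called). Mkx (mohawk), a homeobox factor of tendon, fell by 1.31 (SE 0.08, adjusted p 5.0e-04), from 9.64 ± 0.04 to 8.32 ± 0.15 (SD, n = 3 each). Sox9, the cartilage factor, rose by 0.69 (SE 0.12, adjusted p 0.0081) and tenascin C (Tnc) by 0.45 (adjusted p 0.021). Tnc was not called without control array 1 (adjusted p 0.053), control array 2 (0.068), PDGF-BB array 1 (0.074) or PDGF-BB array 3 (0.060). Over these 9 lists and the further family members, 44 of 138 genes were called, 23 higher and 21 lower, where 21.5% of all genes tested were called.

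**Figure D4:**
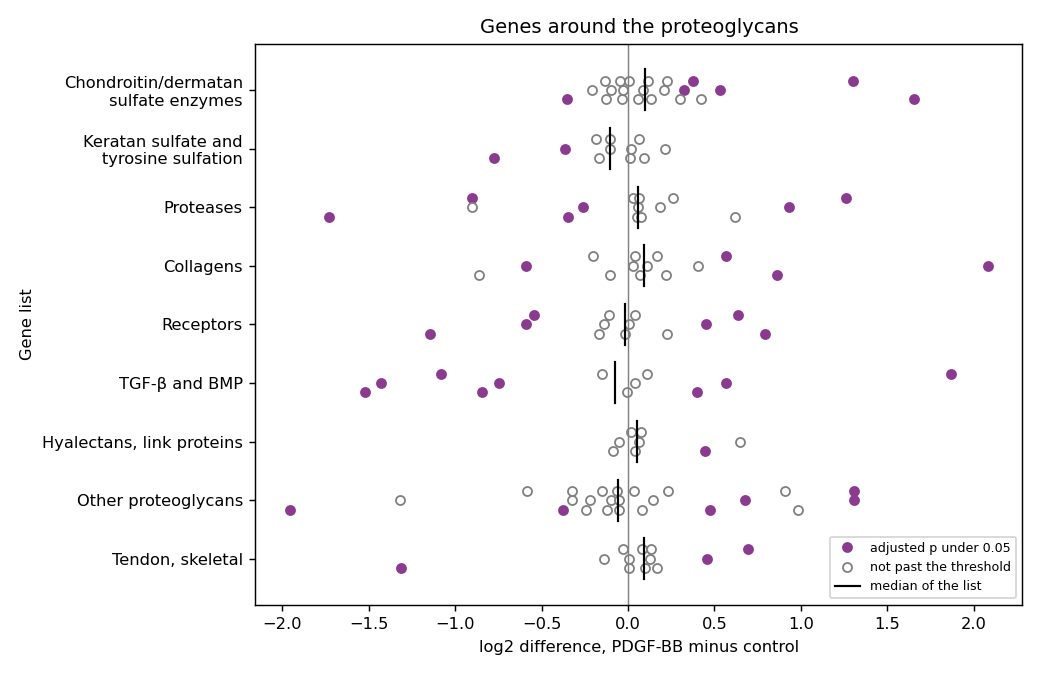
Log2 differences (PDGF-BB minus control) of each measured gene in 9 lists around the proteoglycans, filled where the adjusted p in limma was under 0.05, with a vertical line at each list's median. The medians all lie between -0.10 and 0.10, and filled points fall on both sides of 0 in 7 of the 9 lists.

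The genes whose values most resembled the cluster mean over the 6 arrays, among genes above the background level, were Zfp579, Slc10a6, Cpe, Ttc12 and Arsk, with Pearson's r between 0.998 and 0.9999. Slc10a6, a sulfated steroid transporter, had a log2 difference of -2.61, and the other 4 had -0.57 to -0.82. For Lum the most alike were Tgds, Pdxp, Rnu3a, Ssb and Sncb, at r between 0.992 and 0.996 but with log2 differences of only 0.23 to 0.50. The 6 arrays fall into their 2 groups, so a high r says mainly that a gene separated them, and the resemblance is a description.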

How the data were processed

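Expression was measured in total RNA on 6 one-colour arrays, grouped by their titles. The authors deposited log2 values made with RMA (background correction, quantile normalization and probe set summary), per the submitters' processing notes; the software, its version, the genome build and any filter were not given in the sources used here. Equalised distributions hide a change in total RNA, and a dim or very bright gene's change is understated. Arrays give no read depth; their number limits the precision.

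Of 21225 probe sets, 986 had no single symbol and entered only an alternative; all 20239 others matched RefSeq's gene table by Entrez number. The fit was limma 3.58.1 (lmFit, eBayes) in R 4.3.3, tested on simulated data, with group as the only factor, two-sided, and Benjamini-Hochberg adjustment over 20239 genes. No p is given for the 10 genes. Folds are "at least" where the lower mean is under 7.79 and absent where both are. Members, lists and tests were chosen with earlier results of these data known. Lists came from textbook knowledge. Named were all 10 members, all measured further family genes, all chromosome 13 neighbours (5 on each side), up to 2 called genes per direction and list with the smallest p, and the 5 genes most like the cluster mean and like Lum; Col1a1, Col1a2, Xylt2, Btg2, Atp2b4 and the fibroblast and pericyte markers other than Pdgfrb, Cspg4, Rgs5, Des and Acta2 were added after their values were seen. Neighbour order and promoters are RefSeq's (GRCm38.p6).

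Deviations from group means correlated at 0.25, 0.32 and 0.25 between control and PDGF-BB arrays of the same number and at -0.28 to 0.01 between differently numbered ones. The main fit ignores the number, so errors and p-values are unpaired unless a block is named. A fit with the number as a block is an alternative. Others were repeated quantile normalization, median centring, dropping the dimmer probe sets (50th percentile), all probe sets, a trended robust prior and leaving out each array.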

Additional observations from a re-analysis of the deposited data

How the results depend on the processing

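The limits are 3 arrays per group of unstated independence, no detection calls, Omd and Kera under the background level, Dcn and Bgn near the top of the scale, and marker levels that do not separate pericytes from fibroblasts. Over 12 alternatives, none of the 10 genes changed direction; Ecm2 lost its call in 2 and Kera gained one in 1, as given above. With the replicate block 7 of the 10 genes were called, as without it, while 23.4% of all genes were (21.5% without it). With 1 array left out, 6 to 7 of the 10 were called in either direction, while 14.5% to 20.8% of all genes were. The members called higher then numbered 1 to 2. With the dimmer probe sets dropped, 5 of the 7 still tested were called, while 38.7% of all genes were. The cluster-minus-relatives difference of -1.93 was -1.31 with medians over genes in place of means, and, in alternatives added after the data were seen, -2.49 without Fmod and -1.30 without Lum; it was -2.08 to -1.83 with 1 array left out. Among the other named genes none reversed; 64 of their values under an alternative lost the call and 8 gained it, 3 of Ippk (adjusted p 0.044, 0.039 and 0.048), 3 of Cspg4 (0.015, 0.042 and 0.021) and 2 of Atp2b4, given above. Related genes called ranged from 34 to 50, and cluster neighbours called from 2 to 4.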
